A study of Mus musculus with 6 samples.

Results

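The smooth muscle contractile and pericyte genes Acta2, Tagln, Cnn1, Myl9, Myh11, Des, Lmod1, Cald1, Tpm2 and Kcnj8, 10 in all, were followed in cultured mouse lung endothelial cells (MLECs). They were picked by gene symbol from a list drawn up with earlier results of these data known, and all 10 had an entry among the 17463 of the deposited table. The HEY1-3KR KI group and the HEY1-WT KI group held 3 RNA-seq libraries each, 6 in all, from mice whose genotype is written as a Hey1 iEC-KO combined with a HEY1-3KR or a HEY1-WT iEC-KI, so that the loss of endothelial Hey1 was common to both groups. HEY1 is a basic helix-loop-helix repressor downstream of Notch, and 3KR is not spelled out in the labels. The cells received no treatment and grew in EGM-2, an endothelial medium, with 10% serum. The labels give neither the driver of the alleles, nor the age and number of the mice, nor how endothelial cells were purified. Replicates are numbered without mention of mouse or culture, and each p-value here therefore reflects library-to-library spread that may be technical. Genotype and any batch that follows it cannot be told apart. Read totals are unknown, and the summed FPKM of a library was 258650 to 265967 (fragments per kilobase of transcript, scaled by the library's mapped fragments). Hey1, the gene replaced by the knock-in, had 5.71, 5.24 and 4.87 FPKM in HEY1-3KR KI and 2.21, 2.16 and 2.25 FPKM in HEY1-WT KI, and it is not stated whether the knock-in transcript is counted there, so its level does not check the labels.

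Smooth muscle cells contract when phosphorylated myosin pulls on filaments of smooth muscle actin, and most of the 10 genes encode parts of that machinery. Many smooth muscle genes are activated by serum response factor (SRF) bound at CArG boxes, together with myocardin or the myocardin-related transcription factors. Pericytes are mural cells that wrap capillaries, and they share part of this programme. Fibroblasts, mesothelial cells and endothelial cells grown on plastic can also transcribe Acta2 and Tagln, so these genes do not name a cell type by themselves. In a bulk library, fewer cells of a type and less RNA per cell cannot be told apart.

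The 10 genes did not move as 1 block. In HEY1-3KR KI libraries Kcnj8, a potassium channel gene, was 6.17-fold higher. Lmod1 was 2.42-fold lower, Myl9 1.40-fold lower and Cald1 1.39-fold lower, and Des, Cnn1 and Myh11 changed by -12.3%, -13.2% and -14.5%. Acta2, Tagln and Tpm2 did not pass the test. The count was 1 gene higher, 6 lower and 3 not past an adjusted p of 0.05 (limma on log2(FPKM + 1), Benjamini-Hochberg over 11432 genes), with all 10 above the filter of 1 FPKM in at least 3 libraries. Folds and percentages are ratios of mean FPKM. Over all tested genes 29.9% were called higher, 23.4% lower and 53.2% in either direction. The median log2 fold change of the 10 genes was -0.17, against 0.02 over all tested genes.

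**Figure D1:**
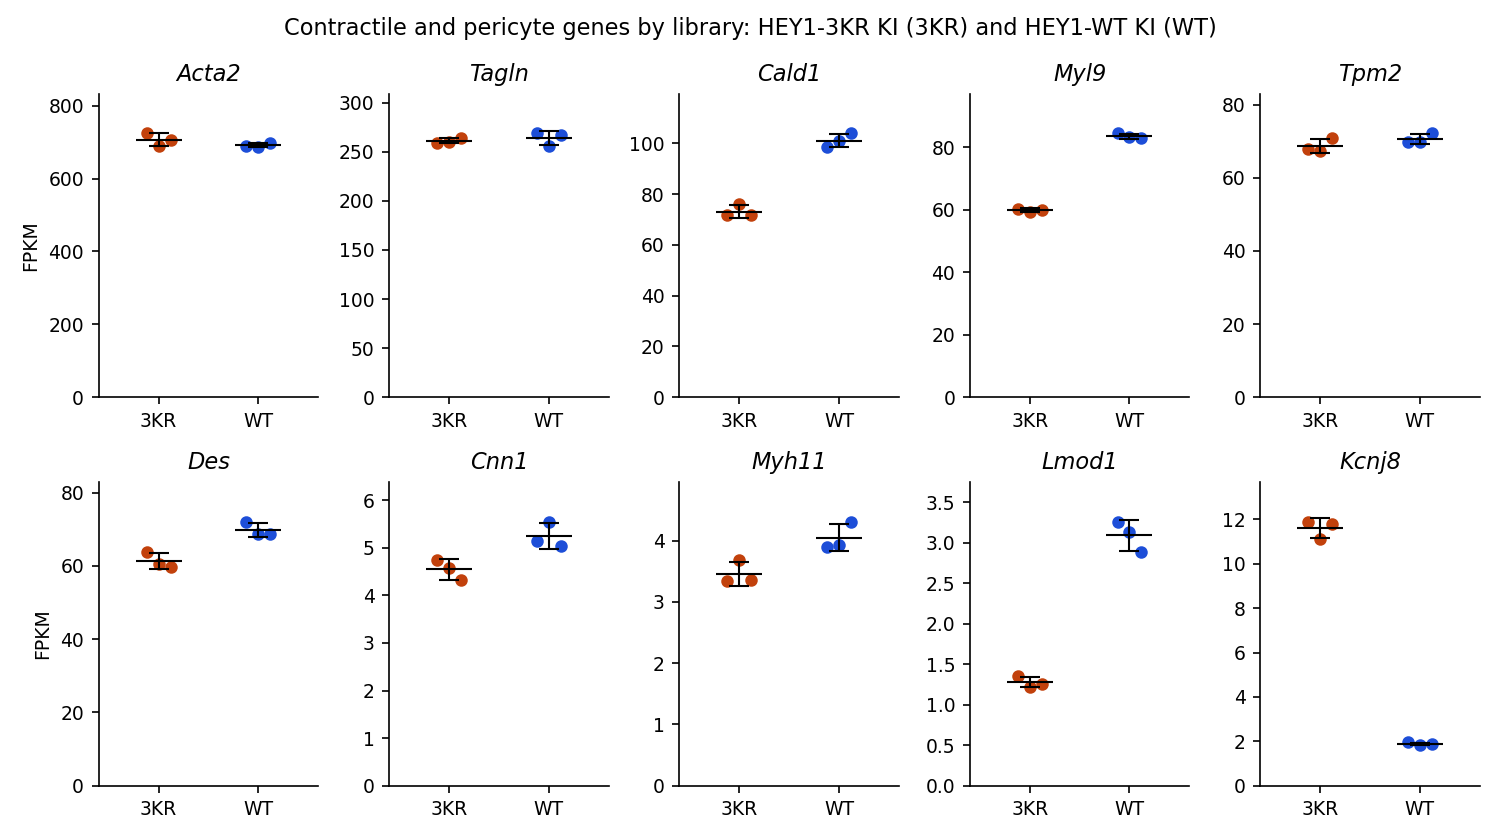
FPKM of the 10 genes in each library (points), with the mean and SD of 3 HEY1-3KR KI libraries (3KR, left) and 3 HEY1-WT KI libraries (WT, right) in each panel and an axis of its own per gene, starting at 0. Kcnj8 sits above 11 FPKM in each HEY1-3KR KI library and below 2 FPKM in each HEY1-WT KI library, while the points of Acta2, Tagln and Tpm2 overlap between the groups.

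Levels spanned a wide range. Per kilobase, the HEY1-3KR KI means ran from 707 FPKM for Acta2 to 1.28 FPKM for Lmod1, and the HEY1-WT KI means from 692 FPKM for Acta2 to 1.88 FPKM for Kcnj8. Acta2 alone made up 55.9% to 57.1% of the summed FPKM of the 10 genes in HEY1-3KR KI libraries and 53.2% to 53.7% in HEY1-WT KI libraries. In HEY1-3KR KI the order of levels was Acta2, Tagln, Cald1, Tpm2, Des, Myl9, Kcnj8, Cnn1, Myh11 and Lmod1, and only the neighbours Des and Myl9 had overlapping values. In HEY1-WT KI it was Acta2, Tagln, Cald1, Myl9, Tpm2, Des, Cnn1, Myh11, Lmod1 and Kcnj8, and only Tpm2 and Des overlapped. Kcnj8 therefore stood last in HEY1-WT KI and seventh in HEY1-3KR KI. Within a genotype the libraries were close, with a coefficient of variation of 0.862% to 6.22% across the 10 genes. Groups did not overlap in 7 of the 10 genes, against 61.1% of all tested genes.

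Acta2 and Tagln had the highest levels of the 10 genes in both genotypes. Acta2 encodes smooth muscle alpha-actin, lies on chromosome 19 at 34241090 to 34255590 (mm10, minus strand) and had 725, 690 and 707 FPKM in HEY1-3KR KI libraries, against 690, 687 and 699 FPKM in HEY1-WT KI libraries. Replicate 2 of HEY1-3KR KI fell inside the HEY1-WT KI range, and the other two were above it. The log2 fold change was 0.03 ± 0.0321 (SE, 95% interval -0.04 to 0.10, limma adjusted p = 0.446), so a change of the size of those of Myl9 or Cald1 lies outside the interval. Quantile normalization turned this value to -0.0941 with a limma adjusted p of 0.0161, and the other 10 alternatives gave no call. Actin genes are close copies of each other and how shared reads were assigned is not stated, so single values in this family are uncertain, as are those of Myl9 beside Myl12a and Myl12b.

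The Acta2 promoter is shown for its CArG boxes, the sites at which SRF is known to bind in this gene. The search took the CArG box with at most 1 G or C among its 6 central bases, which has the same form on either strand, in RefSeq promoter windows of GRCm38.p6 (mm10) that run from 250 bases before to 50 after a gene start. Acta2 held a pair of them, beginning 84 and 34 bases before the RefSeq start, printed here with 10 bases on each side and the box in capitals. Both lie within the first UTR exon of an Acta2 transcript in GENCODE M21, at 34255290 to 34255590.
Acta2 distal box, chr19:34255438-34255467, minus strand: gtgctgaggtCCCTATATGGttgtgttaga
Acta2 proximal box, chr19:34255388-34255417, minus strand: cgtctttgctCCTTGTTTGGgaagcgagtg
At least 1 such box was in 9.98% of all 32851 windows and at least 2 in 0.822%. A match is a description of the letters and does not show binding in these cells.

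Tagln encodes transgelin (SM22-alpha), an actin-binding protein on chromosome 9 at 45929619 to 45936058 whose transcript is an early sign of the smooth muscle programme. It had 259, 260 and 264 FPKM in HEY1-3KR KI and 269, 256 and 267 FPKM in HEY1-WT KI, and the HEY1-3KR KI values lay inside the HEY1-WT KI range. Its log2 fold change was -0.01 (95% interval -0.09 to 0.06, limma adjusted p = 0.738). Tpm2 encodes beta-tropomyosin, which runs along the actin filament, on chromosome 4 at 43514711 to 43523765. Its values were 67.8, 67.2 and 70.9 FPKM in HEY1-3KR KI and 69.9, 69.8 and 72.2 FPKM in HEY1-WT KI, overlapping, with a log2 fold change of -0.04 (95% interval -0.12 to 0.04, limma adjusted p = 0.346).

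Lmod1 encodes leiomodin 1, which nucleates actin filaments in smooth muscle, on chromosome 1 at 135324807 to 135368065. It had 1.35, 1.22 and 1.26 FPKM in HEY1-3KR KI, against 3.26, 3.13 and 2.88 FPKM in HEY1-WT KI. No HEY1-3KR KI library came near the lowest HEY1-WT KI library. On the log2 scale Lmod1 fell by 0.84 (SE 0.0586, limma adjusted p = 4.91e-06), rank 205 from the lowest of all tested genes. With a pseudocount of 0.1 in place of 1 the fall was larger, at -1.21, since the scale compresses low genes. GENCODE M21 gives Lmod1 a single transcript.

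A myosin light chain and caldesmon were lower. Myl9 encodes the regulatory light chain of smooth muscle myosin, on chromosome 2 at 156775420 to 156781658, and had 60.3, 59.1 and 59.8 FPKM in HEY1-3KR KI and 84.5, 83.1 and 83.0 FPKM in HEY1-WT KI. The groups were far apart and each was tight. Its log2 fold change was -0.48 ± 0.03 (SE, limma adjusted p = 2.67e-06). Cald1 encodes caldesmon, which restrains actin-activated myosin, on chromosome 6 at 34598500 to 34775473, and had 71.6, 76.0 and 71.7 FPKM in HEY1-3KR KI and 98.7, 101 and 104 FPKM in HEY1-WT KI. These groups did not overlap either, and the log2 fold change was -0.47 ± 0.0373 (SE, limma adjusted p = 1.19e-05). GENCODE M21 lists 18 transcripts of Cald1, and a gene-level FPKM does not separate the smooth muscle form from the form of other cells.

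Myl9 was the only member with a strict CArG box (no G or C in the centre) in its window, a match that 1.63% of all windows hold. The stretch is shown because it carries that box, beginning 161 bases before the RefSeq start, and another with 1 G in the centre, beginning 99 bases before it. Both are in capitals, and the stretch ends before the GENCODE gene start.
Myl9 promoter, chr2:156775214-156775419, plus strand: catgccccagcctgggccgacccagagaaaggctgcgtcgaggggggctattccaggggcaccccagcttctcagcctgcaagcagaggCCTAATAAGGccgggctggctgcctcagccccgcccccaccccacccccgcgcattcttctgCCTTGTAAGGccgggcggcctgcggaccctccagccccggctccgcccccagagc
RefSeq windows were matched for 8 of the 10 members, 9 windows with a pair for Cald1, and Tagln and Myh11 were not matched. Only Acta2 and Myl9 held a box by the wider search. Of these, Myl9 fell by 0.48 on the log2 scale, and Acta2 had a log2 fold change of 0.03.

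Myh11, the smooth muscle myosin heavy chain, is on chromosome 16 at 14194535 to 14291372 and is the member most restricted to smooth muscle in tissues. It had 3.34, 3.68 and 3.36 FPKM in HEY1-3KR KI, against 3.90, 3.93 and 4.31 FPKM in HEY1-WT KI. Cnn1, calponin 1, an actin-binding inhibitor of myosin on chromosome 9 at 22099216 to 22109630, had 4.75, 4.57 and 4.32 FPKM in HEY1-3KR KI, against 5.14, 5.55 and 5.03 FPKM in HEY1-WT KI. The groups did not overlap in either gene, although the gaps were small. The log2 fold change of Myh11 was -0.18 ± 0.0569 (SE, limma adjusted p = 0.0275) and that of Cnn1 was -0.17 ± 0.0543 (SE, limma adjusted p = 0.0273). The call of Myh11 was lost without HEY1-3KR KI replicate 1 or 3 or HEY1-WT KI replicate 3 (limma adjusted p = 0.0845, 0.0786 and 0.1). The call of Cnn1 was lost without HEY1-3KR KI replicate 2 or 3 or HEY1-WT KI replicate 2 (limma adjusted p = 0.0556, 0.0887 and 0.0961). Des, the intermediate filament protein desmin of muscle cells, on chromosome 1 at 75360329 to 75368579, had 63.7, 60.6 and 59.6 FPKM in HEY1-3KR KI and 72.1, 68.7 and 68.8 FPKM in HEY1-WT KI. Its groups did not overlap, its log2 fold change was -0.19 ± 0.0382 (SE, limma adjusted p = 0.00322), and it stayed past the threshold in all 11 alternatives.

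Kcnj8 went the other way. It encodes Kir6.1, the pore of a potassium channel of the ATP-sensitive type, on chromosome 6 at 142564837 to 142571614. With its partner SUR2, the product of Abcc9, it is known as a marker of brain pericytes. Which of the cultured lung cells carried Kcnj8 was not tested. Kcnj8 had 11.9, 11.1 and 11.8 FPKM in HEY1-3KR KI libraries, against 1.96, 1.83 and 1.86 FPKM in HEY1-WT KI libraries. All 3 HEY1-3KR KI libraries were far above every HEY1-WT KI library. On the log2(FPKM + 1) scale the fold change of Kcnj8 was 2.13 ± 0.0488 (SE, limma adjusted p = 1.22e-08), rank 25 from the highest of the 11432 tested genes, and it ranged from 2.08 to 2.56 over the other scalings and pseudocount. The promoter stretch of Kcnj8 is shown as that of the only member that rose. It holds no CArG box by either search, so no letters are in capitals.
Kcnj8 promoter, chr6:142571615-142571864, minus strand: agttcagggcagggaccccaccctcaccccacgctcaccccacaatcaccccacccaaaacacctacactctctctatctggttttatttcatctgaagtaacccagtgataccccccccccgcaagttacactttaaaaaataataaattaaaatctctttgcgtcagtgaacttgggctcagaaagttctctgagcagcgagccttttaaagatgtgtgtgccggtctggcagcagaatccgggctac
The RBPJ motif TGGGAA, searched on both strands because RBPJ is the DNA-binding factor of Notch signalling, was found in the Kcnj8 window at the RefSeq start itself and in the Acta2 window 27 bases before the start, where it overlaps the proximal CArG box, and it was in 25.6% of all windows. No member's window held CACGTG or CACGCG on either strand, letters that HEY proteins are known to bind and that 7.15% and 9.27% of windows hold. The MCAT element CATTCC of TEAD factors, on either strand, was in the windows of Acta2, Lmod1 and Cald1, and in 14.7% of windows.

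Abcc9 lies 16.2 kb from Kcnj8 on the same strand, at 142587862 to 142702315. It had 0.481, 0.67 and 0.491 FPKM in HEY1-3KR KI and 0.26, 0.254 and 0.262 FPKM in HEY1-WT KI, below the filter and so not tested, and all HEY1-3KR KI values were above the HEY1-WT KI values. The ratio of Kcnj8 to Abcc9 within a library was 24.8, 16.6 and 24.1 in HEY1-3KR KI and 7.54, 7.22 and 7.09 in HEY1-WT KI. No HEY1-3KR KI ratio overlapped the HEY1-WT KI ratios (exact permutation p = 0.1, n = 3 each), and the level of Abcc9 behind them is low. The other subunits of this channel type, Kcnj11 and Abcc8, had means of 0.0479 and 0.0253 FPKM in HEY1-3KR KI and 0.0134 and 0.00759 FPKM in HEY1-WT KI.

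Contractile genes with a broadly expressed relative, 8 of them, were set against it within the same library, which removes the scaling between libraries. With Kcnj8 over Abcc9, Acta2 over Tagln and Myh11 over Acta2, 11 ratios were compared. The exact two-sided permutation test cannot go below p = 0.1 with 3 against 3 libraries, and a p of 0.1 was 0.138 after Benjamini-Hochberg adjustment over these 11. The ratio of Lmod1 to Tmod3, a tropomodulin that caps actin filaments, was 0.0834, 0.0775 and 0.0804 in HEY1-3KR KI and 0.253, 0.248 and 0.216 in HEY1-WT KI. That of Myl9 to Myl12a, the light chain of non-muscle myosin, was 0.362 ± 0.017 in HEY1-3KR KI and 0.588 ± 0.0941 in HEY1-WT KI (SD, exact permutation p = 0.1, n = 3 each). Myl12a was uneven in HEY1-WT KI, at 122, 150 and 161 FPKM. Tmod3, the relative of Lmod1, rose to 15.9 FPKM in HEY1-3KR KI, against 12.9 FPKM in HEY1-WT KI (limma adjusted p = 0.000384). The ratio of Tagln to Tagln2 was 0.628 ± 0.0214 in HEY1-3KR KI and 0.805 ± 0.0119 in HEY1-WT KI (SD, exact permutation p = 0.1, n = 3 each), and here it was Tagln2 that rose, to 416 ± 13.1 FPKM in HEY1-3KR KI, against 328 ± 7.78 FPKM in HEY1-WT KI (limma adjusted p = 6.11e-05).

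Tpm2 and Cnn1 stood higher in HEY1-3KR KI against the relatives paired with them, Tpm4 and Cnn3, which both fell. Other tropomyosin genes did not fall. Tpm1 had 136 FPKM in HEY1-3KR KI and 139 FPKM in HEY1-WT KI and did not pass. Tpm3 rose to 114 FPKM in HEY1-3KR KI, against 105 FPKM in HEY1-WT KI (limma adjusted p = 0.0109). Ratios of Tpm2 to these genes were not compared. Tpm4 fell to 301 FPKM in HEY1-3KR KI, against 377 FPKM in HEY1-WT KI (limma adjusted p = 3.4e-05), while Tpm2 did not pass. Tpm2 over Tpm4 was 0.228 ± 0.00898 in HEY1-3KR KI and 0.187 ± 0.00205 in HEY1-WT KI, and Cnn1 over Cnn3 was 0.0373 ± 0.000927 in HEY1-3KR KI and 0.0331 ± 0.00166 in HEY1-WT KI (SD, exact permutation p = 0.1 for each, n = 3). Cnn3, the acidic calponin of many cell types, had 122 FPKM in HEY1-3KR KI and 159 FPKM in HEY1-WT KI, a log2 fold change of -0.38 beside -0.17 for Cnn1. Des over Vim, the intermediate filament of mesenchymal and endothelial cells, was 0.0724 ± 0.00226 in HEY1-3KR KI and 0.0804 ± 0.000824 in HEY1-WT KI (SD, exact permutation p = 0.1, n = 3 each). The ratio of Acta2 to Actb averaged 0.491 in HEY1-3KR KI and 0.496 in HEY1-WT KI, that of Myh11 to Myh9 0.0173 in HEY1-3KR KI and 0.0168 in HEY1-WT KI, and that of Acta2 to Tagln 2.71 in HEY1-3KR KI and 2.63 in HEY1-WT KI. These 3 ratios overlapped between the groups. Unlike Myh9, the myosin heavy chain genes Myh10 and Myh14 rose (limma adjusted p = 0.0012 and 9.49e-06). They had 22.4 and 2.25 FPKM in HEY1-3KR KI, against 19.0 and 0.786 FPKM in HEY1-WT KI. Ratios of Myh11 to Myh10 and Myh14 were not compared. Myh11 over Acta2 was 0.0049 ± 0.000389 in HEY1-3KR KI and 0.00584 ± 0.000278 in HEY1-WT KI (SD, exact permutation p = 0.1, n = 3 each), and smooth muscle myosin transcripts stayed far below those of smooth muscle actin in every library.

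**Figure D2:**
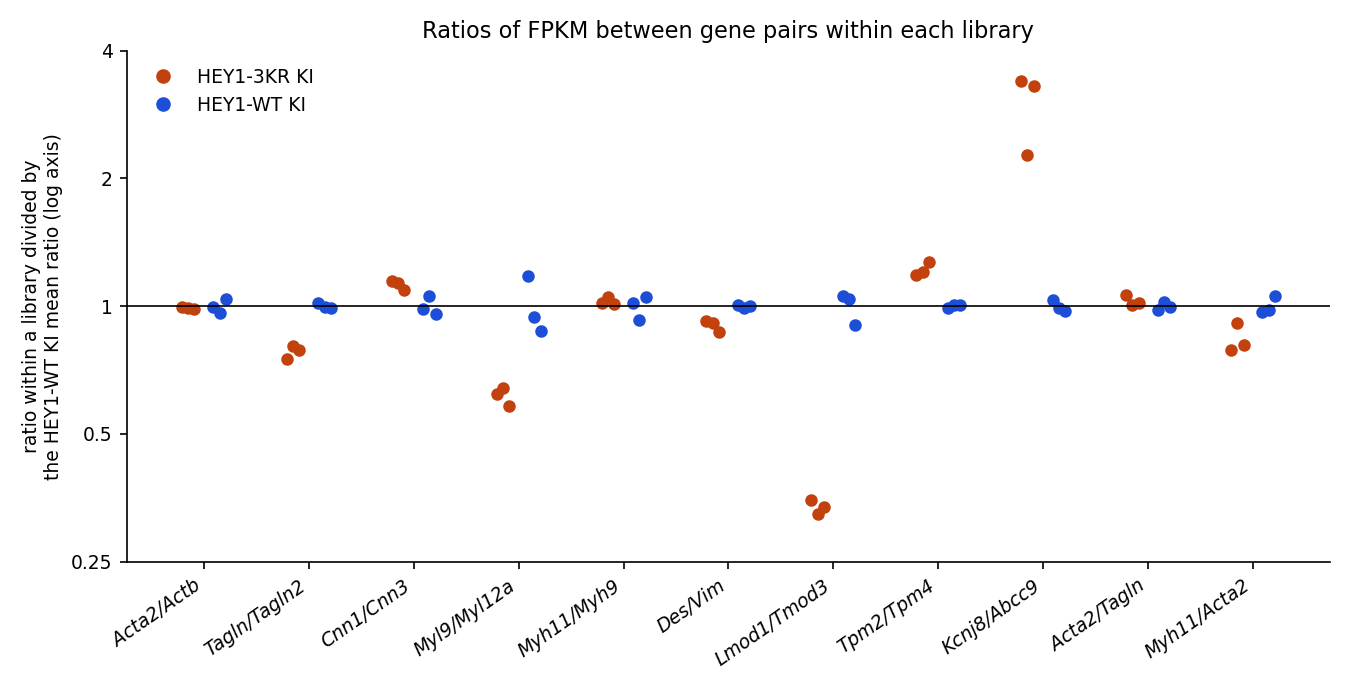
Ratio of FPKM between 2 genes within each library, divided by the HEY1-WT KI mean of that ratio (log axis), with HEY1-3KR KI points left of HEY1-WT KI points for each of 11 pairs. The ratio of Kcnj8 to Abcc9 is 2.95-fold higher and that of Lmod1 to Tmod3 2.96-fold lower in HEY1-3KR KI, whereas Acta2 to Actb, Myh11 to Myh9 and Acta2 to Tagln overlap.

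**Figure D3:**
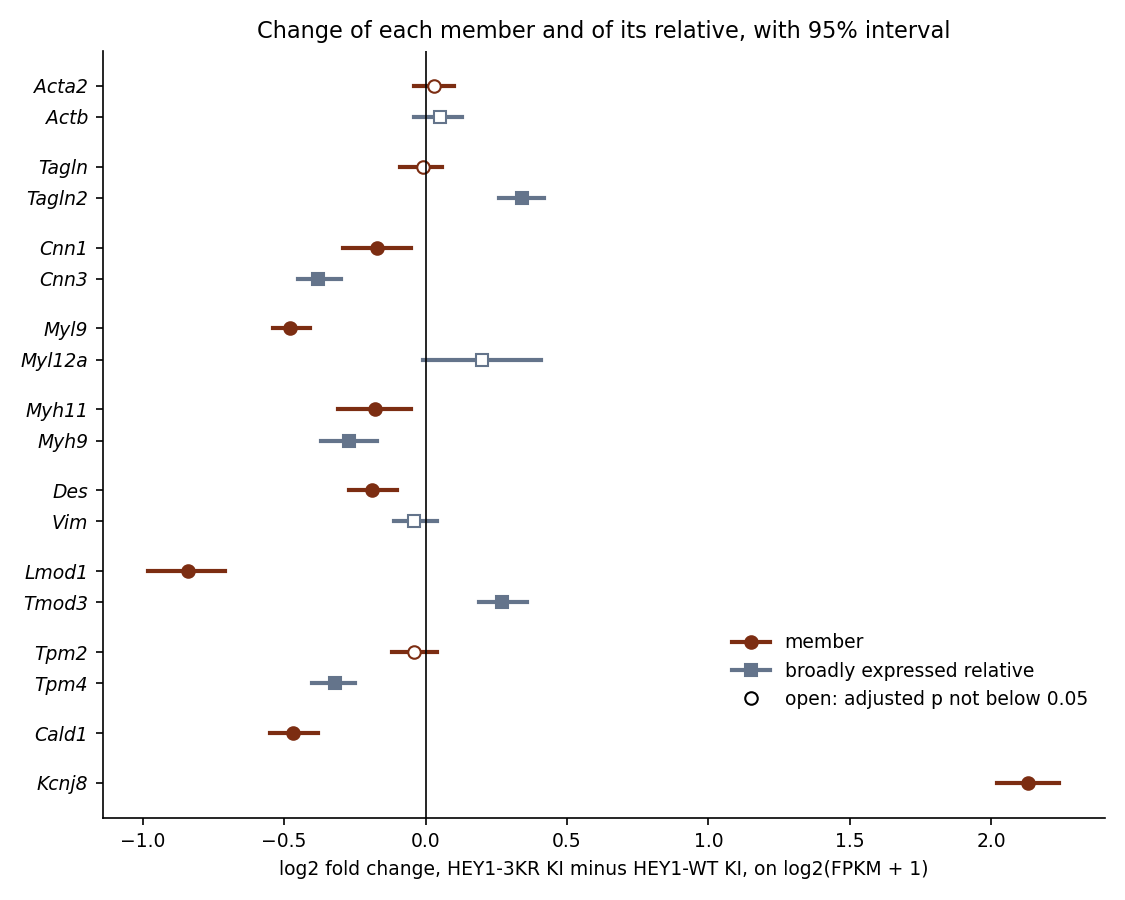
Log2 fold change (HEY1-3KR KI minus HEY1-WT KI, on log2(FPKM + 1)) of each of the 10 genes and of its broadly expressed relative where one was paired and tested, with 95% intervals from limma and open symbols where the adjusted p was not below 0.05. Myl9 and Lmod1 lie left of 0 while the intervals of Myl12a and Tmod3 do not, and Cnn1 and Myh11 lie beside Cnn3 and Myh9, which also fell.

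Genes beside the 10 in the same programme also went both ways. Of all tested genes 29.9% were called higher and 23.4% lower, and the counts here are read beside these shares. Of 22 other smooth muscle genes 15 were tested, and 6 rose, 5 fell and 4 did not pass (median log2 fold change -0.04). Smtn, smoothelin, a protein of contractile smooth muscle cells, rose 2.34-fold to 53.9 ± 1.24 FPKM in HEY1-3KR KI, against 23.0 ± 0.829 FPKM in HEY1-WT KI (SD, limma adjusted p = 7.03e-08). Csrp1, a LIM protein bound to the actin cytoskeleton, rose to 219 FPKM in HEY1-3KR KI, against 156 FPKM in HEY1-WT KI, and Itga8, an integrin subunit, had 2.66 FPKM in HEY1-3KR KI and 1.47 FPKM in HEY1-WT KI. Mylk, the kinase that phosphorylates the myosin light chain, rose to 10.0 ± 0.556 FPKM in HEY1-3KR KI, against 7.15 ± 0.365 FPKM in HEY1-WT KI (SD, limma adjusted p = 0.000185). Flna, filamin A, the most abundant of the list, had 288 ± 15.2 FPKM in HEY1-3KR KI and 319 ± 21.1 FPKM in HEY1-WT KI and did not pass (limma adjusted p = 0.0551). Actg2, the gene of enteric smooth muscle actin, had 22.1 FPKM in HEY1-3KR KI and 21.8 FPKM in HEY1-WT KI and did not pass either. Of 17 tested broadly expressed relatives 5 rose, 4 fell and 8 did not pass (median 0.01). Cnn2, another calponin, fell to 157 FPKM in HEY1-3KR KI, against 244 FPKM in HEY1-WT KI.

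Among 8 tested genes of the SRF and myocardin family 3 rose, 2 fell and 3 did not pass (median 0.03). The shares over all tested genes were 29.9% higher and 23.4% lower. Srf itself was 1.20-fold higher, at 21.5 ± 0.531 FPKM in HEY1-3KR KI and 17.9 ± 1.00 FPKM in HEY1-WT KI (SD, limma adjusted p = 0.00179), and the ternary complex factor Elk4 also rose. Fhl2, a LIM cofactor that is itself an SRF target, was 2.06-fold lower, at 9.56 ± 0.754 FPKM in HEY1-3KR KI and 19.7 ± 1.33 FPKM in HEY1-WT KI. Klf4, a zinc finger factor that represses smooth muscle genes, was 2.02-fold lower, at 13.7 ± 1.18 FPKM in HEY1-3KR KI and 27.7 ± 2.59 FPKM in HEY1-WT KI. Myocd, the myocardin gene, was below the filter, at 0.189 FPKM in HEY1-3KR KI and 0.131 FPKM in HEY1-WT KI. Of the myocardin-related factors, Mrtfb rose to 5.73 FPKM in HEY1-3KR KI, against 4.67 FPKM in HEY1-WT KI (limma adjusted p = 0.0203). Mrtfa had 14.1 FPKM in HEY1-3KR KI and 14.4 FPKM in HEY1-WT KI and did not pass. Of 15 genes that set myosin light chain phosphorylation 3 rose, 3 fell and 9 did not pass (median 0.06). The largest change among them was a fall in a gene not named here. It had 21.5 FPKM in HEY1-3KR KI, against 34.9 FPKM in HEY1-WT KI (limma adjusted p = 1.98e-06). Of the myosin phosphatase subunits, Ppp1cb and Ppp1r12c rose to 15.8 and 19.6 FPKM in HEY1-3KR KI, against 13.4 and 16.2 FPKM in HEY1-WT KI, while Ppp1r12a fell to 10.9 FPKM in HEY1-3KR KI, against 12 FPKM in HEY1-WT KI (limma adjusted p = 0.0205). Rhoa had 80.4 FPKM in HEY1-3KR KI and 79.2 FPKM in HEY1-WT KI.

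The label of the 10 genes speaks of smooth muscle and pericytes, and the pericyte markers ranged from below the filter to 84.7 FPKM for Mcam in HEY1-3KR KI and 49.7 FPKM for Mcam in HEY1-WT KI. Of 16 pericyte markers 12 were tested, 9 rose, Vtn fell and 2 did not pass (median 0.52). Among all tested genes 29.9% were called higher and 23.4% lower. Rgs5, the regulator of G protein signalling by which pericytes are usually recognised, had 0.264 ± 0.0985 FPKM in HEY1-3KR KI and 0.216 ± 0.0528 FPKM in HEY1-WT KI, and Higd1b had 0.42 FPKM in HEY1-3KR KI and 0.266 FPKM in HEY1-WT KI, both below the filter. Pdgfrb, the PDGF receptor of mural cells and fibroblasts, rose to 35.1 ± 1.80 FPKM in HEY1-3KR KI, against 28.2 ± 1.77 FPKM in HEY1-WT KI (SD, limma adjusted p = 0.00144), while Cspg4 had 4.74 FPKM in HEY1-3KR KI and 4.98 FPKM in HEY1-WT KI and did not pass. Ndufa4l2 rose 4.16-fold, Mcam, which endothelial cells also express, 1.71-fold, Postn 1.74-fold and Angpt1, the TIE2 ligand of mural cells, to 1.24 FPKM in HEY1-3KR KI, against 0.386 FPKM in HEY1-WT KI. Vtn had overlapping groups, at 0.602, 0.465 and 1.49 FPKM in HEY1-3KR KI and 1.74, 1.46 and 1.47 FPKM in HEY1-WT KI, and its call was lost without the filter (limma adjusted p = 0.0825) and without any 1 library other than HEY1-3KR KI replicate 3 (limma adjusted p = 0.0687 to 0.125). The summed FPKM of the pericyte list ran from 160 to 165.8 in HEY1-3KR KI and from 102.8 to 107.5 in HEY1-WT KI. Mcam, which is not particular to pericytes, was the largest part of both sums, at 84.7 FPKM in HEY1-3KR KI and 49.7 FPKM in HEY1-WT KI. No pericyte marker was at 0 in all libraries.

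**Figure D4:**
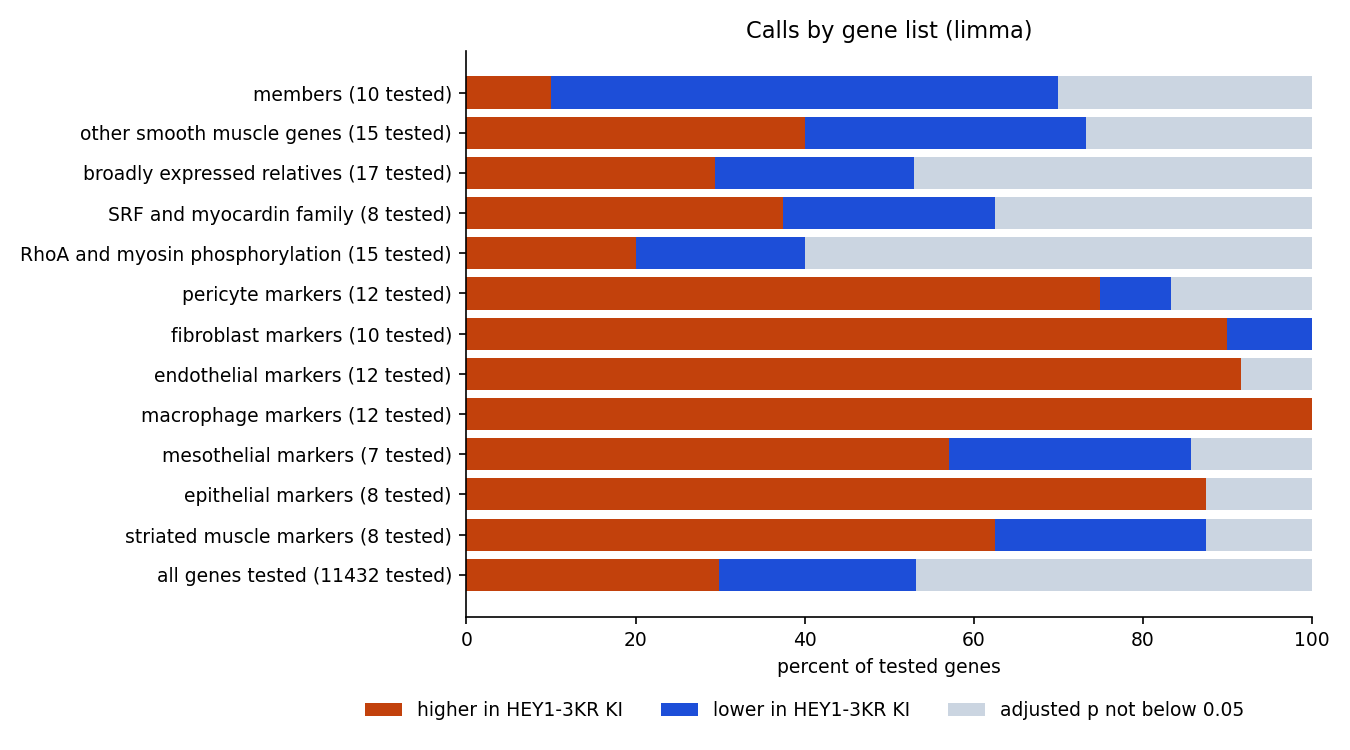
Percent of the tested genes of each list that were called higher in HEY1-3KR KI, called lower or not past an adjusted p of 0.05 (limma), with all 11432 tested genes in the last bar. The bar of the 10 members holds 1 higher and 6 lower, against 9 higher and 1 lower of 12 pericyte markers and 9 higher and 1 lower of 10 fibroblast markers.

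Markers of other cells moved between the same groups, and their part in the values of the 10 genes was not tested. Their counts are read beside 29.9% called higher and 23.4% lower over all tested genes. The 10 genes together held 0.476% ± 0.00269 of summed FPKM in HEY1-3KR KI and 0.491% ± 0.00334 in HEY1-WT KI (SD, exact permutation p = 0.1, n = 3 each), or 1233 to 1269 FPKM in HEY1-3KR KI and 1280 to 1307 FPKM in HEY1-WT KI. Fibroblast markers, which rose in 9 of 10 tested genes and fell in Thy1, summed to 1142 to 1162 FPKM in HEY1-3KR KI and 613.9 to 619.8 FPKM in HEY1-WT KI. Mesothelial markers rose in 4 and fell in 2 of 7, and Msln, mesothelin, had 58.8 FPKM in HEY1-3KR KI and 114 FPKM in HEY1-WT KI. Their sum was 124.1 to 126.1 FPKM in HEY1-3KR KI and 169.7 to 172.4 FPKM in HEY1-WT KI. Msln was the largest part of this sum in both groups, whereas the median log2 fold change of the mesothelial list was 0.41. Endothelial markers rose in 11 of 12, with sums of 485.7 to 491.6 FPKM in HEY1-3KR KI and 279.2 to 288.8 FPKM in HEY1-WT KI, and macrophage markers in 12 of 12, with 5307 to 5577 FPKM in HEY1-3KR KI and 4126 to 4219 FPKM in HEY1-WT KI. Epithelial markers rose in 7 of 8, with 329.7 to 360.0 FPKM in HEY1-3KR KI and 86.98 to 101.1 FPKM in HEY1-WT KI. Striated muscle markers rose in 5 and fell in 2 of 8, among them the sarcomeric actins Acta1 and Actc1, and their summed values overlapped, at 25.45 to 41.66 FPKM in HEY1-3KR KI and 26.44 to 28.04 FPKM in HEY1-WT KI. Among the epithelial markers Sftpb, a surfactant protein gene, had 62.0 FPKM in HEY1-3KR KI and 3.54 FPKM in HEY1-WT KI, and Sftpc had 106 FPKM in HEY1-3KR KI and 19.7 FPKM in HEY1-WT KI. Itgam, an integrin of myeloid cells, had 54.5 FPKM in HEY1-3KR KI and 10.5 FPKM in HEY1-WT KI. The most abundant markers of the fibroblast, endothelial and macrophage lists were Col1a1 with 676 FPKM in HEY1-3KR KI and 317 FPKM in HEY1-WT KI, Cdh5 of endothelial junctions with 133 FPKM in HEY1-3KR KI and 77.7 FPKM in HEY1-WT KI, and Lyz2 of macrophages with 3482 FPKM in HEY1-3KR KI and 3138 FPKM in HEY1-WT KI. No list had a gene at 0 in all libraries.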

How the data were processed

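The authors deposited 1 table of FPKM with a column per library, per the file headers. Per the submitters' processing notes, FastQC 0.19.7, HISAT2 2.1.0, SAMtools 1.9, StringTie 1.3.3b and build mm10 were used. Not stated are the annotation, strand handling, how shared reads were assigned and how gene values were made from transcripts. FPKM is relative to a library's total, and a rise of abundant genes lowers the rest. Low values of genes with a single transcript were at best 48.5% to 59.7% within 0.1 of whole multiples of a step (20% if evenly spread), with the step not told apart from its multiples. Whole reads were therefore not recovered, depth is unknown, and no count test was run.

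The test took the 11432 of 17463 entries that reached 1 FPKM in 3 or more of 6 libraries and was run on log2(FPKM + 1), whose fold changes understate those of low genes, with limma 3.58.1 (R 4.3.3, variance trend, no covariates, two-sided) and Benjamini-Hochberg adjustment over all of them. The fit was tested on simulated data. Folds and percentages are ratios of mean FPKM. Ratios and shares were compared by exact two-sided permutation tests. Positions are from GENCODE M21 (GRCm38, the assembly of mm10) and promoters from RefSeq (GRCm38.p6). Tables and plots were made in Python 3.11.15 (matplotlib 3.10.9, numpy 2.4.6, pandas 2.3.3, scipy 1.17.1). The members and all gene lists were chosen with earlier results of these data known. Genes named beside the members were both genes of each ratio and, per list, some of the up to 4 called genes of smallest p and up to 3 of highest mean. Actg2, Mylk, Tpm1, Tpm3, Myh10, Mrtfa, Mrtfb, Ppp1r12a, Myocd, Rgs5, Higd1b, Cspg4 and Vtn fell outside that rule. They were chosen after their values were seen. The alternatives were another pseudocount, no filter, scaling by median of ratios or quantiles, a replicate block and leaving out each library.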

Additional observations from a re-analysis of the deposited data

How the results depend on the processing

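Kcnj8 stayed higher and Myl9, Cald1, Lmod1 and Des lower past the threshold in all 11 alternatives. For Acta2 the log2 fold change was -0.005 after median-of-ratios scaling and -0.0941 after quantile normalization (limma adjusted p = 0.905 and 0.0161), where 7 of the 10 genes were called lower. Leaving out 1 library at a time gave -0.0363 to 3.11e-05 for Tagln, -0.197 to -0.134 for Cnn1 and -0.214 to -0.141 for Myh11 on the log2 scale, and 4 to 6 members called lower. It also gave log2 differences of -0.04 to 0.01 for the ratio of Acta2 to Actb and -0.01 to 0.08 for that of Myh11 to Myh9. The share of the RhoA list differed by -0.00305 to 0.00119 percentage points. Quantile normalization called 8 of the broadly expressed relatives higher and 2 pericyte markers lower, against 5 and 1 as reported. The count of pericyte markers called lower was 0 without the filter and 0 to 1 when a library was left out. The causes of these changes were not tested. The deviations of same-numbered libraries from their group means correlated at -0.191, 0.254 and -0.272 across genes, and those of differently numbered libraries at -0.24 to 0.381. Deviations within a group of 3 libraries are tied to each other, so these values do not settle whether libraries were paired. With the replicate block 3415 genes were called higher and 2719 lower, against 3414 and 2670 without it, and the same number of members were called (1 higher, 6 lower). Without a known depth, values near or below 1 FPKM, such as those of Abcc9, Rgs5 and Myocd, carry counting error of unknown size.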

Other observations

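The sarcomeric actins, whose proteins are close copies of smooth muscle actin, were lower while Acta2 did not pass. Actc1, cardiac actin, had 1.14, 1.38 and 1.84 FPKM in HEY1-3KR KI and 3.95, 3.64 and 4.14 FPKM in HEY1-WT KI (limma adjusted p = 4.12e-05). Acta1, skeletal actin, had 7.29, 9.09 and 7.55 FPKM in HEY1-3KR KI and 11.0, 12.2 and 11.4 FPKM in HEY1-WT KI (limma adjusted p = 0.000716). Myh6, a cardiac myosin heavy chain, went the other way and was uneven, with 9.90, 11.3 and 5.21 FPKM in HEY1-3KR KI and 4.0, 3.1 and 2.94 FPKM in HEY1-WT KI (limma adjusted p = 0.00281). Thy1, a surface glycoprotein of fibroblasts, had 5.05, 5.35 and 5.19 FPKM in HEY1-3KR KI and 19.3, 19.0 and 19.3 FPKM in HEY1-WT KI, unlike the other 9 tested fibroblast markers, which rose.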
